A study of Mus musculus with 4 samples.

Results

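The T and NK lymphocyte genes were a set of 9: Ptprc, Cd2, Cd3d, Cd3e, Cd3g, Cd4, Cd8a, Gzma and Nkg7. They were chosen by symbol as genes of T cells and natural killer (NK) cells, and 7 of them were among the 17746 gene symbols of the authors' table. Cd4, the co-receptor of helper T cells, and Gzma, a granzyme of killer cells, were looked up and were not among those symbols, so no level is given for either. All 7 members in the table passed the filter on low counts. RNA had been sequenced from cells of lung tumours of mice with floxed Rb1 and Trp53 alleles that also carried a knocked-in autophagy probe, GFP-LC3-RFP-LC3ΔG, and all 4 libraries share this genotype. Live cells that stained for EpCAM and were RFP-positive were split by their GFP signal, and each fraction gave 2 libraries. The sources used here do not give how the floxed alleles were recombined, the ages of the mice, or whether the replicates of a group were separate animals, so p-values measure only the spread between these libraries. The labels contradict each other on which fraction had the higher autophagic flux, so the groups are called by GFP alone. A change below 0 means a lower level in the GFP-negative group.

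T cells recognise antigen through a receptor whose variable chains sit in the membrane with the CD3 proteins, and the cytoplasmic tails of CD3 carry the signal inward. The co-receptors CD4 and CD8 bring the kinase Lck to that complex, CD45 (the product of Ptprc) removes the inhibitory phosphate from Lck, and CD2 is an adhesion receptor that binds CD48 in mice. NK cells kill without this receptor, and they share with cytotoxic T cells the granule genes, among them granzymes and Nkg7. Ptprc marks leukocytes in general, Cd2 is also found on mouse B cells, and Nkg7 on some other leukocytes. The CD3 genes and the receptor chains are thus the most T cell specific of those measured. Lymphocytes do not normally carry EpCAM, the surface protein used in the sort.

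The CD3 genes lie together on chromosome 9 (mm10). Cd3g (ENSMUSG00000002033.14) runs on the minus strand from 44969572 to 44980431, Cd3d (ENSMUSG00000032094.8) on the plus strand from 44981786 to 44987339, and Cd3e (ENSMUSG00000032093.7) on the minus strand from 44998740 to 45009627. Cd3d and Cd3g are thus back to back, with 1355 bases between their starts. The 250 bases before each start, from RefSeq on GRCm38.p6, are shown because these 3 neighbours, parts of one complex, had unequal counts below. Nkg7 is added because it had the highest deposited FPKM of the members in 3 of the 4 libraries. The windows are chr9:44981536-44981785 for Cd3d, chr9:44980432-44980681 for Cd3g, chr9:45009612-45009861 for Cd3e and chr7:43436888-43437137 for Nkg7, each written 5′ to 3′ on the gene's own strand.
Cd3d: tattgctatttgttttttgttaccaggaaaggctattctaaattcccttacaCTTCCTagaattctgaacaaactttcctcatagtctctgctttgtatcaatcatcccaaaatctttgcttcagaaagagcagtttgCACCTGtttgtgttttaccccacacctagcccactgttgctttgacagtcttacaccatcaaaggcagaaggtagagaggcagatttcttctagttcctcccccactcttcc
Cd3g: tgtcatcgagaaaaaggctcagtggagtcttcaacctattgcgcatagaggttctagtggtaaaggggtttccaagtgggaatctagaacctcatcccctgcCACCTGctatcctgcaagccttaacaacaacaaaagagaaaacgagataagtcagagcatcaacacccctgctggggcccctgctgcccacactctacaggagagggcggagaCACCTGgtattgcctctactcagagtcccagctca
Cd3e: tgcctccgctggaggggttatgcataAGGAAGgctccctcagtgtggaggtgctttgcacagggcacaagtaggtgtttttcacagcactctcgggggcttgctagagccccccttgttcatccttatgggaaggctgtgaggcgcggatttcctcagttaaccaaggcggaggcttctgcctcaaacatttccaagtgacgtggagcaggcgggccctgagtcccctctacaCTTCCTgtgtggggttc
Nkg7: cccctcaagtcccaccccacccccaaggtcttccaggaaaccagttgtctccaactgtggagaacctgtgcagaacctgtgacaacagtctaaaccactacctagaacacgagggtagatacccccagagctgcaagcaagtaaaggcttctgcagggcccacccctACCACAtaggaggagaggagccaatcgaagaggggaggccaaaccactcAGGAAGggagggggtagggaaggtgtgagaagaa
Capitals mark matches, on either strand, to AGGAAG (an ETS core), TGTGGT (a RUNX core) and CACCTG (an E-box). TGACGTCA (the CRE) and TATAAA were searched as well and had no match in these 4 windows, and no 2 matches overlapped. Cd3d held 1 ETS match and 1 E-box, Cd3g held 2 E-boxes, Cd3e held 2 ETS matches, and Nkg7 held 1 ETS and 1 RUNX match. Of 32851 RefSeq windows of the same length, 29.5% held the ETS letters, 14.0% the RUNX letters and 17.2% the E-box, so each match is common. The promoter table held entries for 7 of the 9 members, all but Cd2 and Cd4.

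Library depth was 51994432 to 73997175 counts. GFP-positive replicate 1 stood apart, with counts for 6063 symbols against 15710 to 17617 in the other libraries, and 64.4% of the 16301 genes tested were at 0 counts in it. Levels below are CPM, the counts scaled to the TMM-adjusted size of each library. Values are given for GFP-positive replicates 1 and 2 against GFP-negative replicates 1 and 2, in that order. In GFP-positive replicate 1 a limit of 3 counts equals 0.080 CPM, for counting error only. In bulk RNA, fewer cells of a type and less RNA per cell cannot be told apart.

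Under TMM scaling, the 2 GFP-positive libraries were, for 6 of the 7 members, the lowest and the highest of the 4, with the GFP-negative libraries between them. GFP-positive replicate 1 had counts for 1 member of 7, Cd2, while GFP-positive replicate 2 and both GFP-negative libraries had counts for all 7. Among the 3 libraries with all members, GFP-positive replicate 2 had the highest CPM for 7 of 7, against 27.9% of all genes tested. This order was not particular to the members. Of lists described below, it held for 14 of 14 genes shared by most leukocytes (Ptprc among them) and 11 of 11 macrophage markers. It held for 5 of 8 B and plasma cell markers and 0 of 6 epithelial markers. By library totals, DESeq2 size factors and the deposited FPKM the members' count was 6, with Cd3e the exception. The members summed to 429 and 235 against 38.1 and 82.0 CPM. Without Cd2 the sums were 0 and 192 against 33.3 and 63.3 CPM.

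**Figure D1:**
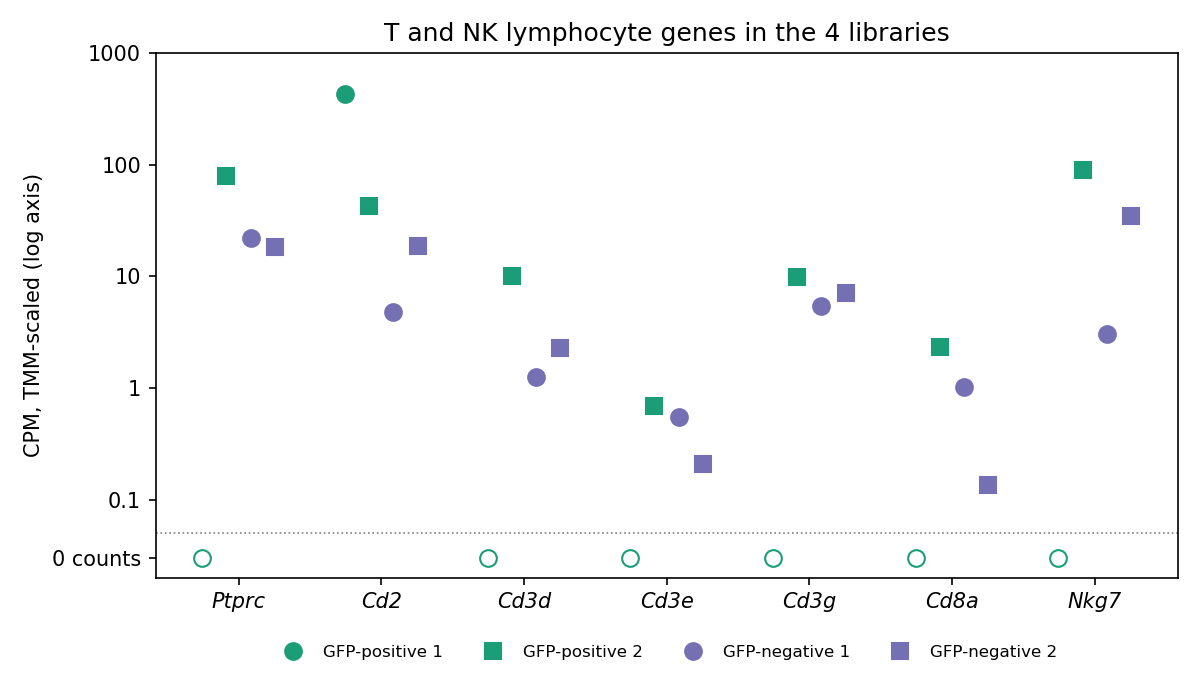
Level of each of the 7 measured members in each library, as TMM-scaled CPM on a log axis. Colours give the GFP group, circles replicate 1 and squares replicate 2, and open circles below the dotted line, which is no level, are libraries at 0 counts. GFP-positive replicate 1 is at 0 for 6 genes and highest for Cd2, at 429 CPM.

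Of the receptor genes, Cd3d, the delta chain of CD3, had 0 and 644 against 141 and 153 counts. In CPM this was 0 and 10.1 against 1.24 and 2.30. GFP-positive replicate 2 thus exceeded the GFP-negative libraries 8.13-fold and 4.40-fold, while replicate 1 lay below both, and the groups overlapped. Its fitted log2 change was -1.51 ± 4.44 (SE, n = 2 per group, edgeR adjusted p = 1.0).

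Cd3g, the gamma chain, had 0 and 9.82 against 5.47 and 7.16 CPM. The 3 libraries with counts lay within 1.79-fold of each other, the narrowest range of any member. Its log2 change was 0.36 ± 4.46. Cd3d and Cd3g had nearly equal counts in GFP-positive replicate 2 (644 and 626), but in GFP-negative replicate 1 they had 141 and 621, and in GFP-negative replicate 2 they had 153 and 477. The ratio of these divergent neighbours was therefore not the same across libraries.

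Cd3e, the epsilon chain, was the scarcest CD3 gene, with 0 and 44 against 63 and 14 counts. Its 95% exact Poisson intervals, which cover counting error only, were 0.50 to 0.93 CPM in GFP-positive replicate 2 and 0.43 to 0.71 CPM in GFP-negative replicate 1. These overlap, so the order of those libraries could not be told at this depth. The log2 change was 0.14 ± 2.80. In the annotation Cd3e overlaps the antisense gene Gm48719 and, on its own strand, the gene model Gm48720. Neither is a symbol of the table. Without strand, reads of Gm48719 cannot be told from those of Cd3e in the overlap, and Gm48720 shares the strand of Cd3e.

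Cd8a, the alpha chain of the co-receptor of cytotoxic T cells (chromosome 6, 71373427 to 71379173), had 0 and 147 against 115 and 9 counts. The levels were 0 and 2.31 against 1.01 and 0.14 CPM, so GFP-negative replicate 1 exceeded its own partner 7.50-fold. The groups overlapped, and the log2 change was -1.004 ± 3.47.

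Ptprc, the CD45 phosphatase (chromosome 1, 138062861 to 138175708), had 0 and 5090 against 2497 and 1228 counts. In CPM it stood at 0 and 79.9 against 22.0 and 18.4. The GFP-negative pair lay within 1.19-fold of each other, and GFP-positive replicate 2 was 3.63-fold and 4.33-fold above them. The log2 change was -0.98 ± 4.01, and GFP-positive replicate 1 lay below both GFP-negative libraries. A130071D04Rik, a gene model inside Ptprc on the same strand, had 62 and 299 counts in GFP-positive and 0 in both GFP-negative libraries, so GFP-positive replicate 1 had reads within the locus but none assigned to Ptprc.

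Nkg7, a membrane protein of cytotoxic granules (chromosome 7, 43437073 to 43438249), had 0 and 5711 against 344 and 2334 counts. The levels were 0 and 89.6 against 3.03 and 35.1 CPM. GFP-positive replicate 2 was 29.6-fold above GFP-negative replicate 1 and 2.56-fold above GFP-negative replicate 2, so the GFP-negative libraries differed from each other too. The log2 change was -1.23 ± 3.97.

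Cd2 (chromosome 3, 101275899 to 101287939) went against the other 6 members in GFP-positive replicate 1. It had 16078 and 2733 against 542 and 1247 counts, or 429 and 42.9 against 4.78 and 18.7 CPM. It was higher in each GFP-positive than in each GFP-negative library, under TMM, DESeq2 size factors, upper quartile scaling, library totals and FPKM alike. GFP-positive replicate 1 was 9.99-fold above GFP-positive replicate 2, a wider gap than the 2.29-fold that set GFP-positive replicate 2 above GFP-negative replicate 2. The log2 change was -4.33 ± 2.79 (edgeR unadjusted p = 0.121, adjusted p = 1.0), and -1.87 ± 1.73 without GFP-positive replicate 1. Cd2 was the one member of 7 whose groups did not overlap, where 31.8% of tested genes had such groups, 6.63% with lower and 25.2% with higher GFP-negative levels. The other 6 members, at 0 counts in GFP-positive replicate 1, could not have lower GFP-negative levels without overlap. Of the table's genes within 100 kb of Cd2, Gm10355 and Igsf3, both had 0 counts in GFP-positive replicate 1.

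In the test across all genes, edgeR's quasi-likelihood fit called 0 of the 7 members, where it called 0.0982% of 16301 genes, 0.0920% lower and 0.00613% higher. No member had an unadjusted p under 0.05, against 3.10% of tested genes. DESeq2's Wald test, limma-voom and limma on log2-transformed FPKM (pseudocounts 0.1, 1 or 5) called 0 members as well. DESeq2 gave no adjusted p for Cd3e and Cd8a, so it could not call them. The fitted change was below 0 for 5 of 7 members with a median of -1.004, while the median over all tested genes was 0.91. That median depends on scaling, being 1.12 with DESeq2 size factors, 0.43 with upper quartile scaling and 1.33 with library totals, and the members' medians were then -0.74, -1.11 and -0.55. The sign of the members' median turned in other fits: it was 2.78 with a replicate block and 2.59 with limma-voom, with 1 of 7 below 0 in each, against 3.92 and 3.81 for all genes. With limma on log2(FPKM + 0.1) it was 0.67, against 1.76 for all genes, and on log2(FPKM + 1) it was 0.042, against 0.67. The SE of the 7 members was 2.79 to 4.46 on the log2 scale. With 2 libraries against 2, an exact permutation test of a single gene cannot go below p = 0.333 and was not used.

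For 6 of the 7 members the direction depended on which GFP-positive library was used, and Cd2 was the exception. Without GFP-positive replicate 1, the fitted changes of all 7 members were below 0, from -0.64 ± 2.37 for Cd3g to -2.52 ± 2.64 for Cd3d, with a median of -1.99 against 0.29 for all genes, of which 41.3% were below 0. None of the 7 passed the test in that fit (edgeR adjusted p = 1.0 for each, 0 with an unadjusted p under 0.05), where 0.00587% of genes did. Without GFP-positive replicate 2, edgeR called Ptprc, Nkg7 and Cd3g higher (adjusted p = 0.0122, 0.0143 and 0.0379) and Cd2 lower (log2 change -5.19 ± 1.79, adjusted p = 0.0245) in GFP-negative libraries. That fit called 45.2% of 16804 genes, 42.7% higher and 2.49% lower, so calls were common in it. Its GFP-positive group is 1 library, assumed to vary like the GFP-negative pair, and it is at 0 counts for the 3 genes called higher, so their fitted sizes are not bounds.

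**Figure D2:**
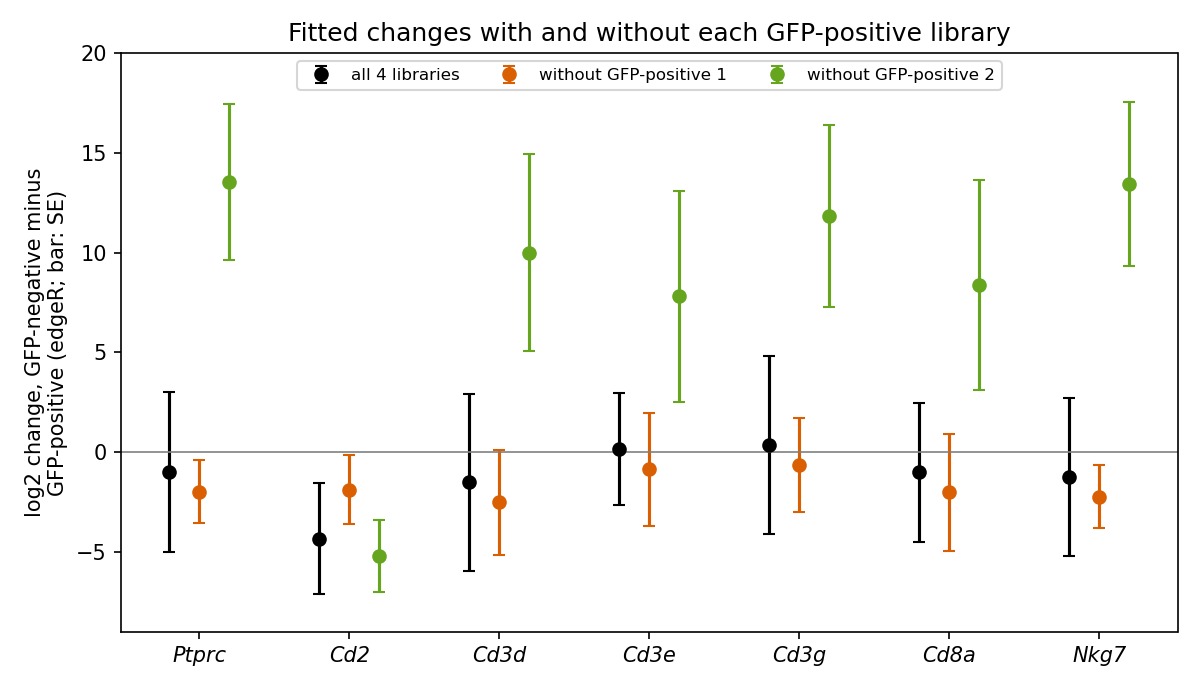
Fitted log2 change of each member, GFP-negative minus GFP-positive, from edgeR with all 4 libraries and without each GFP-positive library, with bars for 1 SE. Without GFP-positive replicate 1 all 7 points lie below 0, and without GFP-positive replicate 2 all but Cd2 lie above 7, where the GFP-positive library left is at 0 counts and the size is no bound.

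Levels of different genes were compared by the deposited FPKM, which scale by gene length. The length implied by the authors' counts and FPKM was 1.15 times the total exonic length of a gene in GENCODE M21 (median, 1.14 to 1.17 from the 5th to the 95th percentile), so FPKM use all annotated exons. In GFP-positive replicate 2 the order was Nkg7 at 79.4 FPKM, Cd2 at 19.96, Cd3d at 4.50, Ptprc at 3.53, Cd3g at 2.43, Cd8a at 0.51 and Cd3e at 0.14 FPKM. In GFP-negative replicate 1 it was Nkg7 at 4.47 FPKM, Cd2 at 3.69, Cd3g at 2.26, Ptprc at 1.62, Cd3d at 0.92, Cd8a at 0.37 and Cd3e at 0.18 FPKM. In GFP-negative replicate 2 it was Nkg7 at 31.9 FPKM, Cd2 at 8.94, Cd3g at 1.82, Cd3d at 1.04, Ptprc at 0.83, Cd3e at 0.043 and Cd8a at 0.027 FPKM. Nkg7 and Cd2 led, and Cd8a and Cd3e were last, in each of the 3. Nkg7 ranked 812th of all symbols by FPKM in GFP-positive replicate 2 and 7488th in GFP-negative replicate 1. In GFP-positive replicate 1, Cd2 stood at 159 FPKM and ranked 415th.

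These orders depend on the length taken. The exons of Ptprc add up to 18313 bases, 3.19 times its longest annotated transcript of 5740 bases, against 1.04 times for Nkg7. Scaled to the longest transcript, Ptprc would be at 11.3 FPKM in GFP-positive replicate 2, above Cd3d at 5.06. In GFP-negative replicate 1 Cd2 (5.58) and Ptprc (5.17) would then stand above Nkg7 (4.63). Cd3e stayed below Cd3d and Cd3g on either length in the 3 libraries with counts.

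The wider T cell machinery was read from fixed lists, which were drawn up with earlier results of these data known. Of 12 genes of the receptor complex and co-receptors, 9 were in the table, and GFP-positive replicate 1 had 0 counts for all 9. Trbc2, a constant segment of the receptor beta chain, had 0 and 21.7 against 7.89 and 1.76 CPM. The other constant segments, named here after their values were seen, had 0 and 10.1 against 5.54 and 4.97 CPM for Trbc1, and 0 and 10.03 against 3.97 and 0 CPM for Trac of the alpha chain. Trbc1 and Trbc2 are near-identical, so the split of reads between them is uncertain. Cd8b1, the partner of Cd8a, had 0 and 17.9 against 1.89 and 0 CPM. Of these segments, GFP-positive replicate 2 and GFP-negative replicate 1 had counts for both chains, and GFP-negative replicate 2 for the beta chain alone. edgeR called 0 of these 9 genes, with 0 at an unadjusted p under 0.05 and 0 by DESeq2 and limma-voom. DESeq2 gave no adjusted p for Cd3e and Cd8a, which are among the 9. The median log2 change of the 9 was -1.004. That median turned to 2.78 with a replicate block, 2.59 with limma-voom, and 0.67 and 0.055 with limma on FPKM (pseudocounts 0.1 and 1). Without GFP-positive replicate 2 it was 10.17, against 9.95 for all genes. The size is no bound, since the remaining GFP-positive library is at 0.

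Of 23 signalling and surface genes 14 were in the table, and Cd2 was the only one with counts in GFP-positive replicate 1. Lcp2, the adaptor SLP-76 that is also used by myeloid cells, had 0 and 171 against 8.95 and 68.1 CPM. Skap1, an adaptor of T cell adhesion, had 0 and 2.06 against 75.0 and 39.0 CPM, so GFP-positive replicate 2 lay below both GFP-negative libraries, where for the 7 members it lay above both under TMM scaling. Lck, the kinase of the co-receptors and named after its values were seen, had 0 and 23.6 against 12.4 and 14.0 CPM. Of the 13 tested, edgeR, DESeq2 and limma-voom called 0, none had an unadjusted p under 0.05, and the median log2 change was -1.15. The median turned to 2.24 with a replicate block, 1.88 with limma-voom, and 0.45 and 0.15 with limma on FPKM (pseudocounts 0.1 and 1). Without GFP-positive replicate 2 it was 9.43, against 9.95 for all genes.

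**Figure D3:**
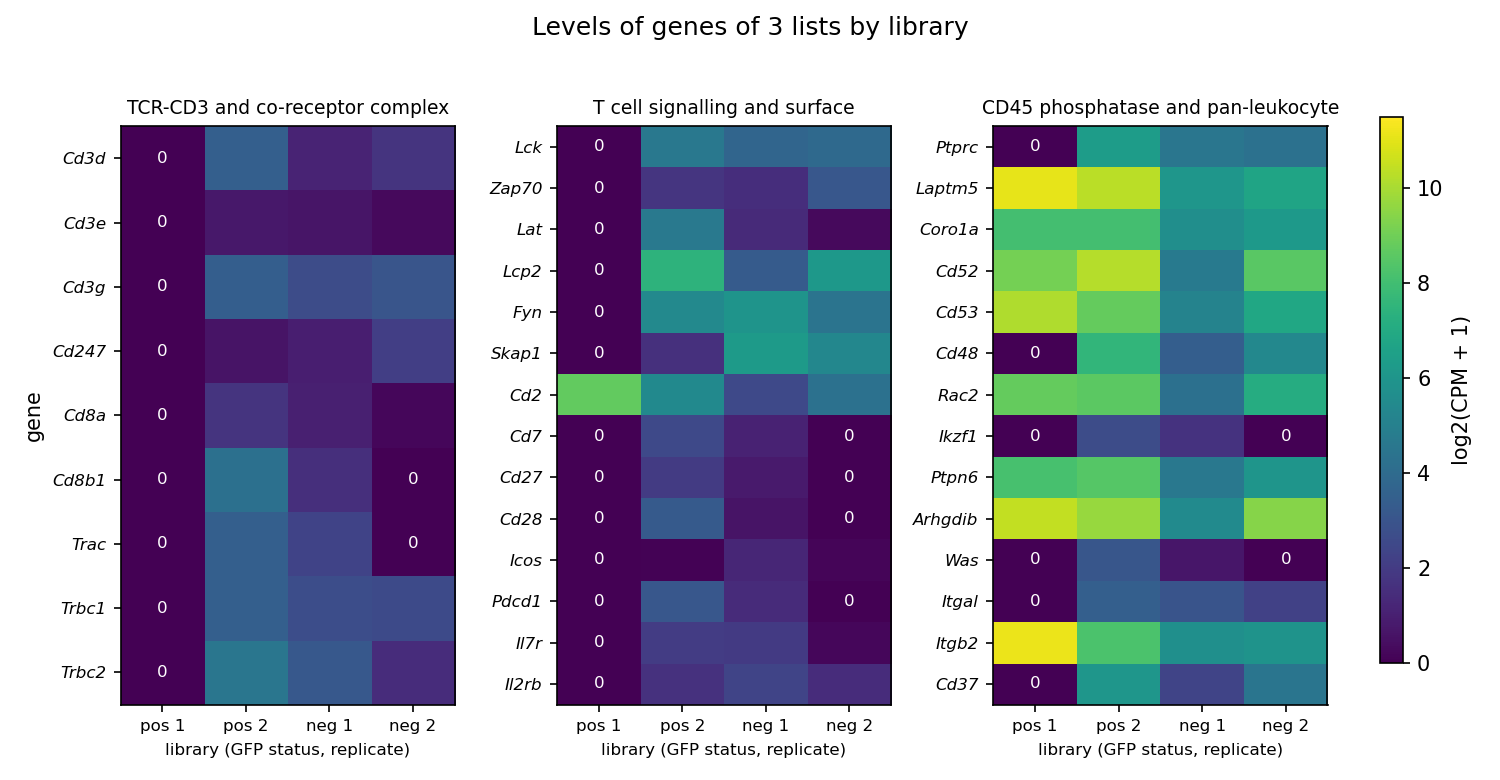
Level of each gene in the table from 3 lists, as log2(CPM + 1), in the 2 GFP-positive (pos) and 2 GFP-negative (neg) libraries, with 0 written where a library had 0 counts. The column of GFP-positive replicate 1 is at 0 for all 9 receptor genes and for 13 of 14 signalling genes, but for 6 of 14 leukocyte genes.

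Of 12 transcription factors of T and NK cells 11 were in the table, with counts for 2 in GFP-positive replicate 1. Runx3, which directs cytotoxic lineages and acts in other leukocytes too, had 285 and 25.04 against 0.33 and 9.66 CPM, the same order of libraries as Cd2. Ets1 had 0 and 10.7 against 11.9 and 6.26 CPM. edgeR called 0 of the 10 tested, with 1 (Gata3) at an unadjusted p under 0.05 and 0 called by limma-voom. The DESeq2 result for this list is not reported here. The median log2 change was 0.98, with 6 of 10 above 0, against 0.91 for all tested genes. Without GFP-positive replicate 2 it was 8.93, against 9.95 for all genes.

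For NK receptors, 7 of 16 genes were in the table. The 3 most abundant, Fcgr3, Tyrobp and Fcer1g, are an Fc receptor and signalling adaptors that macrophages also express. Tyrobp had 2050 and 2399 against 25.3 and 486 CPM. Its log2 change was -3.12 ± 1.17, with an unadjusted p of 0.00777 and an adjusted p of 1.0 in edgeR. Fcgr3 had 2397 and 1550 against 35.6 and 1432 CPM, and Fcer1g had 1545 and 4806 against 52.3 and 2077 CPM. Klrk1, the activating receptor NKG2D and named after its values were seen, had 0 and 5.90 against 1.15 and 2.72 CPM. Ncr1, Klrb1c and Klrd1, which define NK cells in mice, were not among the table's symbols. edgeR called 0 of the 6 tested, and DESeq2 and limma-voom 0. On log2(FPKM + 0.1) limma called Tyrobp and Fcer1g lower, where it called 0.258% of all genes. It called Tyrobp on log2(FPKM + 1), where it called 0.141% of all genes. On log2(FPKM + 5) it called 0 of the list and 0.0675% of all genes. Without GFP-negative replicate 2, edgeR called 3 of 7 lower, Fcgr3, Tyrobp and Fcer1g, where 0.351% of all genes were called. The median log2 change was -1.502, and 2.44 without GFP-positive replicate 2, where it was 9.95 for all genes.

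Of 15 cytotoxic effector genes 9 were in the table, and under TMM scaling all 9 had a higher CPM in GFP-positive replicate 2 than in both GFP-negative libraries, though by library totals Xcl1 was highest in GFP-negative replicate 1. Srgn, a granule proteoglycan, had 806 and 486 against 24.6 and 249 CPM. The chemokine Ccl5 had 96.5 and 338 against 6.95 and 82.6 CPM. Lamp1, a lysosomal membrane protein used as a mark of granule release and not specific to killer cells, had 2149 and 1133 against 431 and 250 CPM. The granzyme Gzmb, named after its values were seen, had 0 and 3.26 against 0.74 and 0 CPM. edgeR, DESeq2 and limma-voom called 0 of the 9, none had an unadjusted p under 0.05, and the median log2 change was -2.24. Without GFP-positive replicate 2 it was 6.20, against 9.95 for all genes.

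Of the genes shared by most leukocytes, 14 of 14 were in the table, and 8 had counts in GFP-positive replicate 1, where Ptprc was at 0. Itgb2, the integrin beta chain of leukocytes, had 2271 and 306 against 51.5 and 59.6 CPM. Laptm5 had 2183 and 1274 against 65.1 and 103 CPM, and Arhgdib had 1389 and 837 against 44.3 and 686 CPM. For 8 of the 14 the groups did not overlap and the GFP-negative libraries were lower, against 6.63% of all tested genes. These were the 8 with counts in GFP-positive replicate 1. A gene at 0 there cannot show this pattern, and 64.4% of tested genes were at 0 there. edgeR called 0 of the 14, with 2 (Laptm5 and Itgb2) at an unadjusted p under 0.05 and 0 by DESeq2 and limma-voom, and the median log2 change was -2.10. The median was -1.69 without GFP-positive replicate 2, against 9.95 for all genes. It was -3.48 without GFP-negative replicate 2, against 0.74 for all genes. Cd48, whose product is the ligand of CD2, had 0 and 189 against 9.97 and 40.5 CPM.

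Summed levels of markers of other cell types also differed between the libraries, in several orders, and their part in the members' values was not tested. All 11 macrophage markers in the table had counts in each library, though only 4 for Mrc1 in GFP-positive replicate 1. Their summed level was 100890 and 52034 against 926 and 17039 CPM, led by Lyz2 and Chil3. B and plasma cell markers summed to 1890 and 6602 against 2942 and 20136 CPM, with 2 of 8 above 0 counts in GFP-positive replicate 1, where Igkc made up nearly all and Jchain, Cd79a and Cd79b were at 0. Dendritic cell markers summed to 0.13 and 72.1 against 58.1 and 50.5 CPM and neutrophil markers to 194 and 145 against 29.1 and 31.6 CPM. The neutrophil sum in GFP-positive replicate 1 was S100a8 alone, with S100a9, Retnlg and Csf3r at 0 there. Erythroid markers summed to 40285 and 13062 against 1415 and 5206 CPM. Endothelial markers summed to 396 and 5.19 against 94.6 and 30.9 CPM, where Pecam1 made up nearly all in GFP-positive replicate 1. Other endothelial genes went the other way. Vwf had 0 and 0 against 86.9 and 10.5 CPM. Kdr and Emcn also had 0 counts in both GFP-positive libraries and counts in both GFP-negative ones. Fibroblast markers summed to 0.16 and 76.6 against 24.2 and 70.0 CPM. Epcam, the gene of the sort marker, had 94.0 and 65.9 against 255 and 88.9 CPM. The epithelial list, which includes it and is led by Krt8 and Krt18, had counts for 6 of 6 genes in each library. Its gene Cdh1 had only 4 counts in GFP-positive replicate 1. The epithelial list summed to 1328 and 406 against 2719 and 738 CPM, and neuroendocrine markers to 3205 and 1071 against 4316 and 1296 CPM. In each library the members thus summed to less than the epithelial list and less than the macrophage list.

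**Figure D4:**
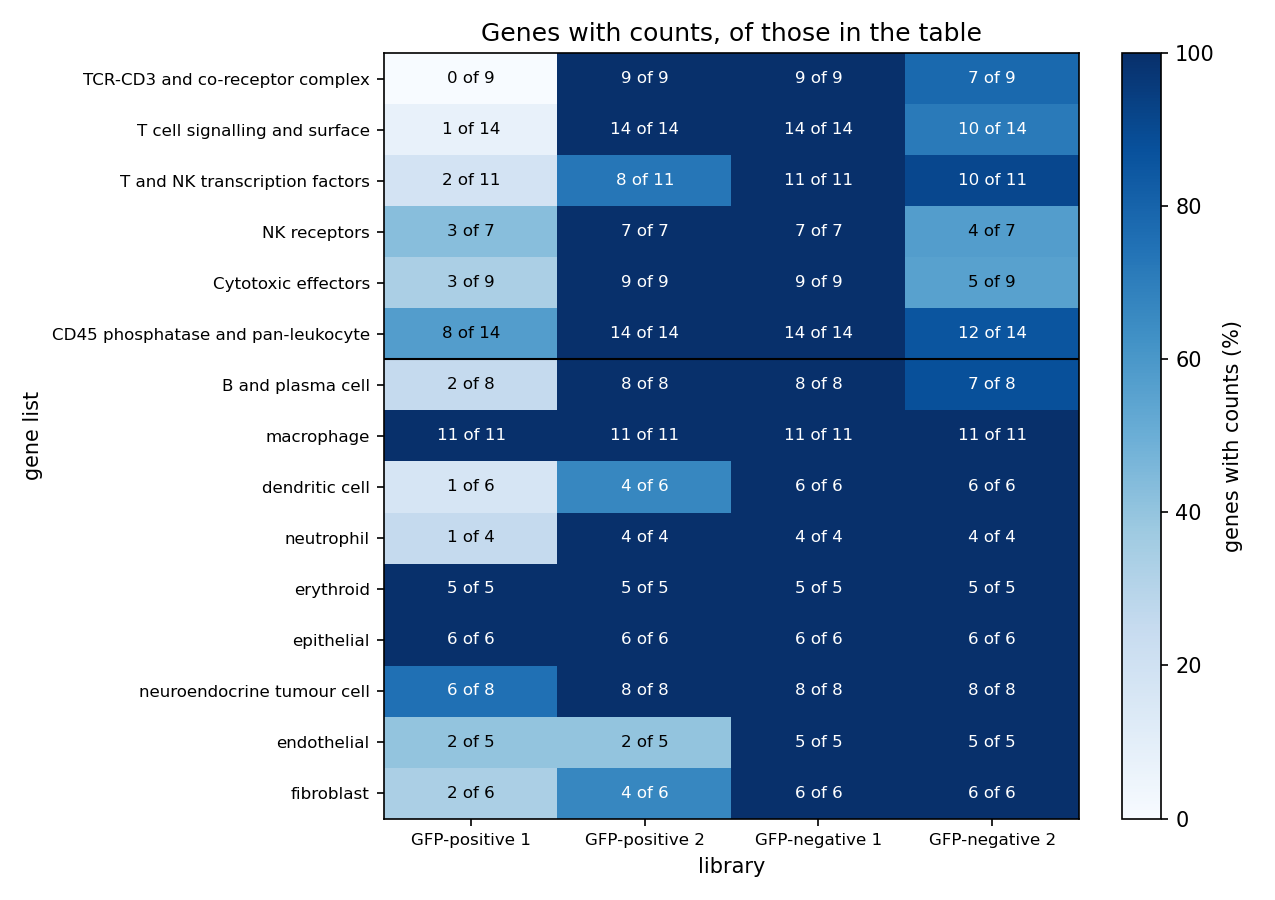
Number of genes with counts in each library, of those in the table, for the 6 lists of T, NK and leukocyte genes (above the line) and 9 lists of other cell types (below), with the shade giving the percentage. In GFP-positive replicate 1 the receptor complex has 0 of 9, while the macrophage, erythroid and epithelial lists are complete. Of these, the macrophage gene Mrc1 and the epithelial gene Cdh1 have only 4 counts each there.

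Genes with the most similar levels were found by distance between log2(CPM + 1) values over the 4 libraries, a description from few points that many genes meet. Closest to the mean profile of Cd3d, Cd3e and Cd3g, of 12623 genes that reached 5 CPM, were Gm19705, Six2, Rpl30-ps10, A630072M18Rik and Magi1, at distances of 0.21 to 0.29. Closest to Ptprc were Glb1, Tap2, Cnp, Tgfbr1 and Ifih1, at 0.21 to 0.41. Glb1, for example, a lysosomal galactosidase, had 0 and 83.1 against 25.3 and 17.9 CPM. None of these 10 was on the lists. Among the members, the distance was smallest for Cd3e and Cd8a, at 1.04, and Cd2 lay 8.87 or more from every other member.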

How the data were processed

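Per the file headers, the authors deposited 1 table of whole-number counts and FPKM for 17746 gene symbols in 4 libraries. Per the labels' protocols, cDNA was made from very little RNA by template switching, which does not mark the strand, and amplified by PCR, so single molecules can be multiplied or lost and counting errors understate the true error. The submitters' processing notes name build mm10 and the tools HISAT2 2.2.1, StringTie 2.1.6, cutadapt 1.9, edgeR and DESeq2, without saying which one counted. Each symbol had counts in at least 2 libraries.

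The counts were fitted with edgeR 4.0.16 under R 4.3.3 (filterByExpr with a minimum count of 10, TMM, glmQLFit and glmQLFTest on the group alone), with Benjamini-Hochberg adjustment over 16301 genes and a threshold of 0.05. SE is the absolute log2 change over the square root of F. Alternatives used DESeq2 1.42.0 and limma 3.58.1 (voom, and log2 FPKM of the same genes), other scalings and filters, a replicate block and each library left out. Comparing the order of libraries between scalings was added after seeing the data. The test was checked on simulated counts (dispersion 0.1), where it recovered 162 of 200 genes changed 4-fold with 5 false calls and 200 of 200 changed 16-fold with 6. The common dispersion of these data was 3.67, so this does not show what the test can find in them. The members and lists were chosen with earlier results of these data known. Genes named outside the members were called genes of a list or, with none, its 3 with the highest CPM, 2 for a marker list, and the 5 nearest in level. Genes named after their values were seen are so marked, as are gene models, neighbours, absent symbols, Cd48 and markers at 0. Of the genes this rule named, 1 is not reported here; it stayed in every fit and list.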

Additional observations from a re-analysis of the deposited data

How the results depend on the processing

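Of the members, 0 were called under each alternative that kept all 4 libraries, and 0 to 4 with 1 library left out. The number of all genes called, 16, was 5 when only genes with counts in all 4 libraries were tested (Cd2 was then the only member tested), 63 by DESeq2's Wald test, 4 by limma-voom, 42 by limma on log2(FPKM + 0.1), 0 with upper quartile scaling (1150 at an unadjusted p under 0.05), and 1 to 7601 with 1 library left out. Cd2 kept its direction under every alternative run, from -11.05 to -1.87 on the log2 scale. Other members did not. With the replicate block the log2 changes were 2.78 for Cd3d, 1.68 for Cd8a, 3.64 for Nkg7 and 4.61 for Ptprc, with limma-voom 2.59, 1.33, 3.30 and 4.76 for the same genes. With limma on log2(FPKM + 0.1) they were 0.67 for Cd3d, 2.099 for Nkg7 and 1.07 for Ptprc, with limma on log2(FPKM + 1) 0.58 for Nkg7 and 0.042 for Ptprc, and with upper quartile scaling -0.54 for Cd3e. With 1 library left out the ranges were -2.52 to 10.01 for Cd3d, -0.85 to 7.80 for Cd3e, -0.64 to 11.84 for Cd3g, -3.07 to 8.39 for Cd8a, -3.90 to 13.43 for Nkg7, -1.99 to 13.52 for Ptprc and -5.52 to -1.87 for Cd2. The cause was not tested. The block called 21 genes. The replicate numbers were not shown to pair the libraries, since deviations of same-numbered libraries from their group means correlated at 0.033 over genes. At 0 counts in GFP-positive replicate 1, depth limits 6 of 7 members to a level below 3 counts there, for counting error only.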
